A study of Arabidopsis thaliana with 12 samples.

Results

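Subtilases and serine carboxypeptidase-like proteins are large plant families of serine peptidases, and 4 of their genes are described here: the subtilase genes SBT4.12 (AT5G59090) and ATSBT5.2 (AT1G20160), and the serine carboxypeptidase-like genes SCPL34 (AT5G23210) and scpl48 (AT3G45010). They were found by gene symbol among the 17504 annotated probe sets of an Affymetrix AraGene 1.1 ST array, and each had exactly 1 probe set. SBT4.12, ATSBT5.2 and SCPL34 were chosen by their values in untreated seedlings, kept in the solvent DMSO alone, where the mutant amp1-13 lay above wild type with an adjusted p under 0.05, and SCPL34 also by the same call in treated seedlings. Their values in those comparisons are a description and carry no test. The last gene inside that threshold in DMSO was CCB3, with a difference of 0.87 (log2) and an adjusted p of 0.0484, and the first outside was AT1G22700, with 0.53 and 0.0522. The measure behind the choice of scpl48 is not known; with all 12 arrays at equal weight it was called in no comparison.

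Seedlings of Arabidopsis thaliana, ecotype Col-0, were grown for 10 d in liquid medium with sucrose, and RNA was taken from the whole plants. There were 4 groups of 3 arrays, described as biological replicates: each of wild type and the amp1-13 mutant was kept either in DMSO alone or in 30 µM hyperphyllin. DMSO was present at 1% in all 4 groups, since it was also the solvent of hyperphyllin. The values are log2 expression values after RMA, a background correction, normalization and probe summary. In RNA from whole seedlings, a lower value through fewer cells of a type and one through less RNA per cell cannot be told apart.

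Subtilases cut proteins internally and most are secreted into the cell wall, where several release signalling peptides from their precursors. Serine carboxypeptidase-like proteins have the fold of enzymes that remove amino acids from the C terminus of peptides, and some members act as acyltransferases of plant metabolism instead. AMP1, mutated in amp1-13, is a putative carboxypeptidase of the endoplasmic reticulum that resembles zinc-dependent glutamate carboxypeptidases, so it is related to neither family by sequence. Hyperphyllin is a small molecule that gives wild-type seedlings features of amp1 mutants.

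DMSO array 1 of wild type stood apart from its group. Its mean correlation over the 17504 probe sets was 0.973 with the other arrays of its group and 0.987 with the arrays of the other groups. On the first principal component, which held 40.4% of the variance, DMSO arrays 2 and 3 of wild type lay at 43.9 and 47.7 and the other 10 arrays between -28.1 and 0.8. Differences of the 4 genes from untreated wild type are therefore also given without array 1. Whole seedlings should hold shoot and root RNA, and the 3 measured shoot markers (RCA, PSAE-1, LHCB4.1) and 2 measured root markers (EXPA7, PYK10) were present. The mean log2 value of the shoot markers was 9.54 to 9.86 in untreated wild type and 9.94 to 10.10 in the other groups. That of the root markers was 8.37 to 9.30 in untreated wild type and 8.23 to 8.68 in the others. The part of this shift in the results below was not tested. No probe set annotated to AMP1 alone was found, so its transcript gave no check of the genotype.

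**Figure D1:**
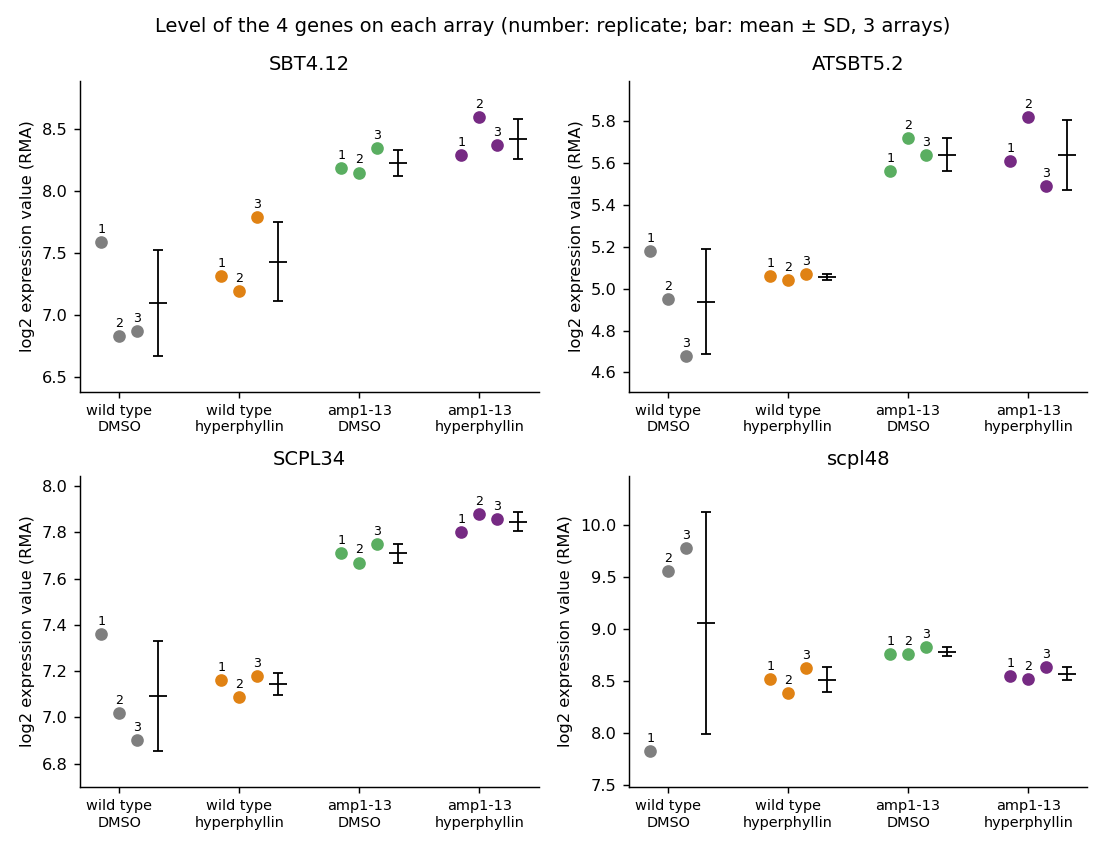
Log2 expression value of each gene (y axis, a separate scale per panel) on each of the 12 arrays, by group (x axis). Points are arrays with their replicate number and the black mark is the mean ± SD of 3 arrays. For SBT4.12, ATSBT5.2 and SCPL34 all 6 amp1-13 arrays lie above all 6 wild-type arrays, and for scpl48 the 3 untreated wild-type arrays lie at 7.83, 9.56 and 9.78, below and above the other 9 arrays.

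Of the 4 genes SBT4.12 had the largest difference between the genotypes. Its product is one of the subtilases that mature the abscission peptide IDA in Arabidopsis. In DMSO, SBT4.12 was at 7.59, 6.83 and 6.87 (log2) on the 3 arrays of wild type and at 8.19, 8.15 and 8.35 on those of amp1-13. With hyperphyllin it was at 7.31, 7.19 and 7.79 in wild type and at 8.29, 8.60 and 8.37 in amp1-13. Thus no wild-type array reached the lowest amp1-13 array, and the highest wild-type values came from DMSO array 1 and hyperphyllin array 3.

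From low to high, the group means of SBT4.12 stood in the order untreated wild type (7.10 ± 0.43, SD, n = 3), treated wild type (7.43 ± 0.32), untreated amp1-13 (8.23 ± 0.11) and treated amp1-13 (8.42 ± 0.16). The groups of 1 genotype overlapped with each other, while a gap of 0.36 separated treated wild type from untreated amp1-13. In DMSO the difference of amp1-13 from wild type was 1.13 ± 0.20 (log2, SE), or 2.19-fold, and it was 1.38 without DMSO array 1 of wild type. In hyperphyllin the difference was 0.99 ± 0.20, or 1.99-fold, with all 3 amp1-13 arrays above all 3 wild-type arrays. It is given without a test, since the treated arrays entered the choice of SBT4.12 through the shared estimate of the spread.

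ATSBT5.2 followed the same order of genotypes at smaller size. Its product was described in Arabidopsis as CRSP, a protease that cleaves the stomatal peptide precursor EPF2. In DMSO, ATSBT5.2 was at 5.18, 4.95 and 4.68 (log2) in wild type and at 5.56, 5.72 and 5.64 in amp1-13. With hyperphyllin it was at 5.06, 5.04 and 5.07 in wild type and at 5.61, 5.82 and 5.49 in amp1-13. The treated wild-type arrays had an SD of 0.02 and lay inside the range of the untreated ones, and the groups of amp1-13 overlapped.

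The difference of ATSBT5.2 between amp1-13 and wild type was 0.71 ± 0.13 (log2, SE) in DMSO, or 1.63-fold, and 0.83 without DMSO array 1 of wild type. In hyperphyllin it was 0.58 ± 0.13, or 1.49-fold, with a gap of 0.42 between the groups, and for the same reason as with SBT4.12 it is given without a test.

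SCPL34 had the tightest values of the 3 genes that were higher in amp1-13. It encodes a predicted serine carboxypeptidase-like protein. In DMSO, SCPL34 was at 7.36, 7.02 and 6.90 (log2) in wild type and at 7.71, 7.67 and 7.75 in amp1-13. With hyperphyllin it was at 7.16, 7.09 and 7.18 in wild type and at 7.80, 7.88 and 7.86 in amp1-13. The SD was 0.04 in each group of amp1-13 and 0.05 in treated wild type, against 0.24 in untreated wild type, where array 1 was highest.

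The difference of SCPL34 between amp1-13 and wild type was 0.62 ± 0.11 (log2, SE) in DMSO, or 1.53-fold, and 0.75 without DMSO array 1 of wild type. In hyperphyllin it was 0.70 ± 0.11, or 1.63-fold, with a gap of 0.62 between the groups. The choice of SCPL34 used both values, so neither is tested here. Of all 17504 probe sets, 57 (0.326%) were called between the genotypes in DMSO and 40 (0.229%) in hyperphyllin; 3 of the 4 genes were among the first, as their choice fixed. SCPL34 was among the second, and SBT4.12 and ATSBT5.2 were not. The same 3 genes had all amp1-13 arrays above all wild-type arrays in both media, as had 6.91% of all probe sets in DMSO and 11.4% in hyperphyllin. In DMSO each of these 3 calls was kept under 3 of 18 alternatives (array weights, a filter on dim probe sets, and array 1 of untreated wild type left out). The direction was kept under all 18. With no overlap between the genotypes, leaving out or weighting arrays could not have reversed it, so this is no separate support.

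scpl48 showed a different pattern, with its widest spread in untreated wild type. It encodes a serine carboxypeptidase-like protein similar to vacuolar carboxypeptidases. In DMSO, scpl48 was at 7.83, 9.56 and 9.78 (log2) in wild type and at 8.76, 8.76 and 8.83 in amp1-13. With hyperphyllin it was at 8.52, 8.39 and 8.63 in wild type and at 8.55, 8.52 and 8.64 in amp1-13. The 9 arrays outside untreated wild type lay between 8.39 and 8.83, while array 1 of untreated wild type was the lowest of all 12 arrays and arrays 2 and 3 were the highest. Array 1 lay 1.84 below the mean of arrays 2 and 3 (difference -1.84).

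For scpl48 the difference of treated from untreated wild type was -0.55 ± 0.37 (log2, SE; limma adjusted p = 0.476), and that of amp1-13 from wild type in DMSO was -0.28 ± 0.37 (adjusted p = 0.758). With array 1 of untreated wild type left out these differences were -1.16 ± 0.11 and -0.89 ± 0.11, and the interaction of genotype and compound moved from 0.34 to 0.95 (2.75% of all probe sets were then called for the interaction). Without array 3 they were -0.18 and 0.08. The size, and for the genotype the sign, therefore depended on which untreated wild-type array was kept. No p is given for the values without array 1, since they may have led to the choice of scpl48. In hyperphyllin scpl48 differed between the genotypes by 0.06 ± 0.37 (95% interval -0.74 to 0.86). This SE rests on the spread shared by all 4 groups, which includes untreated wild type with an SD of 1.07. In the 2 groups compared the SD was 0.12 in wild type and 0.06 in amp1-13.

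**Figure D2:**
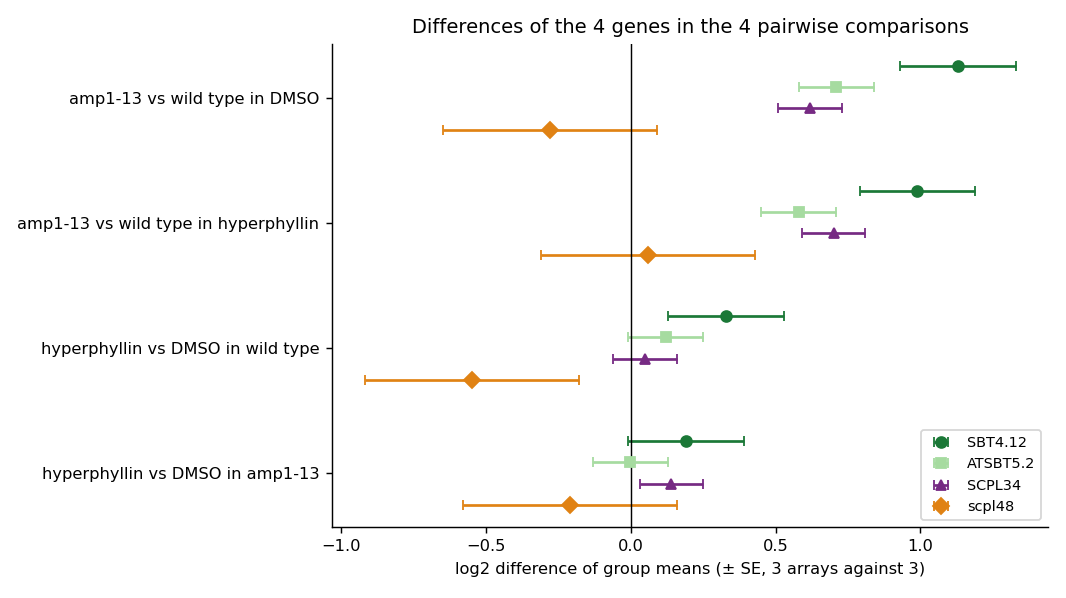
Difference of the group means (x axis, log2, ± SE of the fit, 3 arrays against 3) of the 4 genes in the 4 pairwise comparisons (y axis). SBT4.12, ATSBT5.2 and SCPL34 lie between 0.58 and 1.13 in both genotype comparisons and between -0.0014 and 0.33 in both compound comparisons; scpl48 has the widest error.

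Hyperphyllin moved none of the 4 genes past the test in either genotype. In wild type the difference was 0.33 for SBT4.12 (95% interval -0.12 to 0.77, limma adjusted p = 0.437), 0.12 for ATSBT5.2 (-0.16 to 0.40, adjusted p = 0.656) and 0.05 for SCPL34 (-0.20 to 0.30, adjusted p = 0.861). Over all probe sets 287 (1.64%) were called in this comparison. With array 1 of untreated wild type left out ATSBT5.2 was at 0.25 and SCPL34 at 0.18, neither past the test, while SBT4.12 was at 0.57 and passed (adjusted p = 0.0376; from 0.0376 to 0.788 over 18 alternatives, of which only this one passed), against 14.0% of all probe sets then called. The compound comparisons and the interaction share arrays and the estimate of the spread with the comparisons that chose 3 of the genes, so their p values are not independent of that choice.

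In amp1-13 the compound's difference was 0.19 for SBT4.12 (95% interval -0.25 to 0.64, limma adjusted p = 0.912), -0.0014 for ATSBT5.2 (-0.28 to 0.28, adjusted p = 1) and 0.14 for SCPL34 (-0.11 to 0.38, adjusted p = 0.882). For scpl48 it was -0.21 (-1.01 to 0.60, adjusted p = 0.961). That interval too rests on the spread shared by all groups, while the SD of scpl48 was 0.04 in untreated and 0.06 in treated amp1-13. The 3 treated amp1-13 arrays of SCPL34 all lay above the untreated ones, by 0.05, and those of scpl48 all below, by 0.11, against 8.22% of all probe sets with all treated arrays higher and 8.70% with all lower. Called probe sets were 3 of 17504 (0.0171%) here. The interaction of genotype and compound was -0.14 ± 0.29 for SBT4.12, -0.13 ± 0.18 for ATSBT5.2 and 0.09 ± 0.16 for SCPL34, with limma adjusted p values from 0.894 to 0.931; limma called 0 of 17504 probe sets (0%) for it. With array 1 of untreated wild type left out these interactions were -0.38, -0.25 and -0.05, and none of the 3 passed.

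Treated wild type lay below untreated amp1-13 for SBT4.12, ATSBT5.2 and SCPL34. The difference of their means was -0.80, -0.58 and -0.57 (log2), and that of scpl48 -0.27. For the first 3 genes the highest treated wild-type array was at 7.79, 5.07 and 7.18. The lowest untreated amp1-13 array was at 8.15, 5.56 and 7.67, so these groups did not overlap. For scpl48 the values were 8.63 and 8.76, so its groups did not overlap either. These values share arrays with the comparisons that chose the genes and are given without a test. The share of all probe sets with no overlap between these groups is not given here, so the separation has no background.

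The rest of the subtilase family had means on both sides of 0. Of 56 listed subtilase genes 48 were measured. Of these 12 have a gene symbol, and the other 36, given by locus code, were placed in the family from general knowledge of it, since the tables used here name no product. Of the 48 genes 31 had means below the median of the annotated probe sets, and low probe sets can hide a difference. In DMSO 23 of the 48 had higher and 25 lower means in amp1-13, with a median difference of -0.01 (log2) against -0.04 over all probe sets. The other 10 with a symbol lay between -0.29 for S1P, the site-1 protease gene, and 0.43 for ARA12, a gene of seed coat mucilage, and limma called 0 of them. The other 46 of the whole list lay between -0.46 and 0.60, and limma called 0 of them. Of the 48, 9 had an unadjusted p under 0.05. The share of all probe sets with an unadjusted p under 0.05 is not given here, so such counts have no background. For 2 of the 46 all amp1-13 arrays lay above all wild-type arrays and for 3 below, at a background of 6.91% and 9.01%. With hyperphyllin this held for 2 above and 2 below, at a background of 11.4% and 10.6%. In hyperphyllin the family had 24 higher and 24 lower means with a median of 0.0023, and the other 46 lay between -1.48 and 0.30, the 10 with a symbol between -0.30 for SBT3.3 and 0.30 for ARA12.

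The subtilase relatives nearest to the 2 genes on the chromosome did not pass the test between the genotypes. SBT4.12 lies in a run of subtilase genes, of which 7 others were measured: AT5G58820, AT5G58830, AT5G58840, AT5G59100, SBT4.13, AT5G59130 and AT5G59190. They lay between -0.27 and 0.04 in DMSO and between -0.33 and 0.23 in hyperphyllin, with limma adjusted p values of at least 0.388 and 0.523, and all 7 had means below the median of the annotated probe sets. SBT4.13, which also matures IDA, was at -0.10 ± 0.22 in DMSO. AT1G20150, the neighbour of ATSBT5.2, was at 0.05 ± 0.16 there. Among the nearest measured genes of any kind AT5G59080, by SBT4.12, was at 0.69 in DMSO (limma adjusted p = 0.0732) and 0.28 in hyperphyllin, and AT3G44970, by scpl48, at 1.37 (adjusted p = 0.0641) and 0.83. Low probe sets can hide a difference, so these values do not show that the genes were unaffected.

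**Figure D3:**
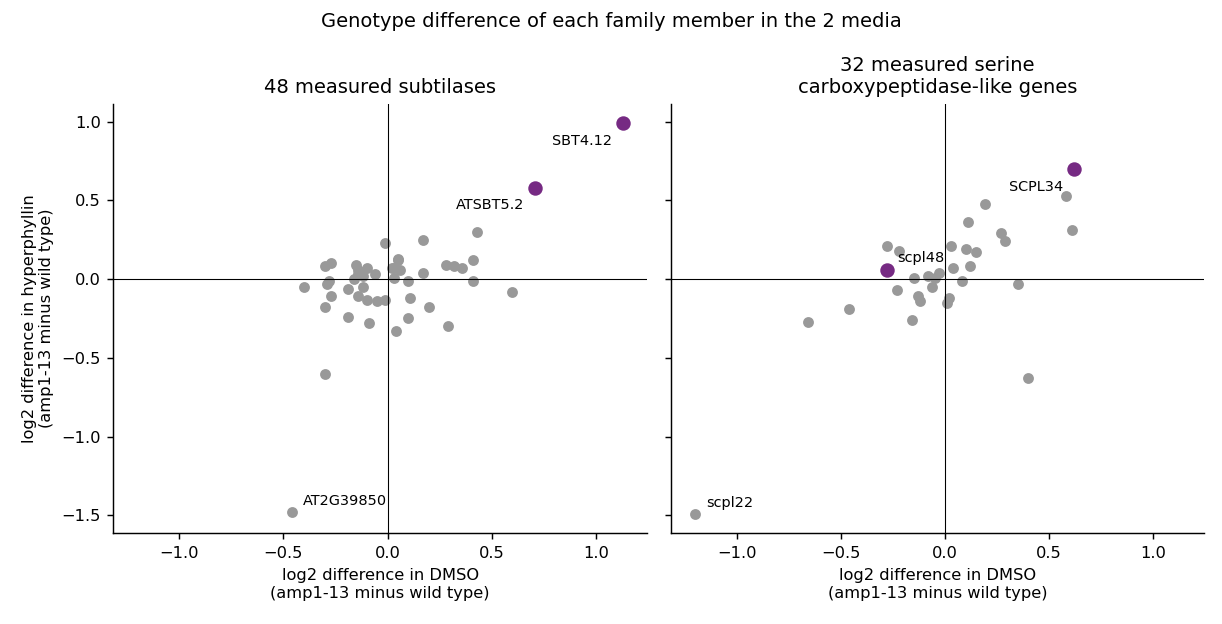
Each point is a measured gene of the subtilase family (left) or the serine carboxypeptidase-like family (right), placed by the log2 difference of amp1-13 minus wild type, in DMSO on the x axis and in hyperphyllin on the y axis (3 arrays against 3 each). The 4 described genes are in purple. SBT4.12, ATSBT5.2 and SCPL34 lie at the upper right and AT2G39850 and scpl22 at the lower left.

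AT2G39850 lay on the other side. It was the only one of the other 46 subtilases that limma called between the genotypes in hyperphyllin, and it was lower in amp1-13 by a difference of -1.48 ± 0.25 (log2, SE, adjusted p = 0.0404; from 0.00116 to 0.213 over 18 alternatives, 7 of which kept the call). AT2G39850 was at 6.87, 6.79 and 6.25 with hyperphyllin in wild type and at 5.13, 5.03 and 5.31 in amp1-13, so the groups were well apart. In DMSO it was at 5.30, 6.40 and 6.22 in wild type and at 5.62, 5.31 and 5.60 in amp1-13. There array 1 of wild type lay below all amp1-13 arrays and the other 2 above all of them, and the difference of -0.46 did not pass (adjusted p = 0.393); without array 1 it was -0.80 and passed (adjusted p = 0.0104). Its interaction of -1.02 ± 0.36 did not pass either (adjusted p = 0.481).

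Other subtilases with the smallest p in a comparison did not pass. AT5G45650 was at 0.60 ± 0.15 in amp1-13 in DMSO (limma adjusted p = 0.1) and at -0.08 in hyperphyllin (adjusted p = 0.906); with array 1 of untreated wild type left out the first was 0.73 and passed (adjusted p = 0.00606). In DMSO 3 further genes, AT4G10540 (-0.30), AT5G44530 (0.36) and AT4G10510 (-0.40), had adjusted p values from 0.166 to 0.199. In treated against untreated wild type SBT1.3 was at 0.73 ± 0.17 (adjusted p = 0.0574), SBT3.3, which is linked to immune priming, at 0.50 ± 0.13 (0.0752), AT4G10540 at -0.37 (0.0748) and AT3G14067 at -0.53 ± 0.14 (0.0806). Limma called 0 of 48 subtilases there, with 10 at an unadjusted p under 0.05, a count without a background here. Without DMSO array 1 of wild type 7 of 48 passed, among them SBT1.3 at 0.92, against 14.0% of all probe sets. With array weights 9 passed, against 17.3% of all probe sets. In amp1-13 the compound also gave 0 calls by limma, with 2 at an unadjusted p under 0.05 (AT3G14067 at -0.39 and AT5G45640 at -0.39), again without a background. AT4G10540, AT4G10510, SBT3.3 and AT5G45640 were dim, with group means from 1.73 to 2.50 (log2). Those of SBT1.3 were 3.16 to 3.89, also below the array medians of 4.13 to 4.18.

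The serine carboxypeptidase-like family also had means on both sides of 0. Of 51 listed genes 32 were measured, and 18 of the 32 had means below the median of the annotated probe sets. In DMSO 17 of the 32 had higher and 15 lower means in amp1-13 (median 0.01), and in hyperphyllin 19 and 13 (median 0.03). SCPL34 was called in both media, and limma called 0 of the other 30 in either. Of the 32, 5 and 4 had an unadjusted p under 0.05, counts without a background here. For 6 of the 30 all amp1-13 arrays lay above all wild-type arrays in hyperphyllin and for 2 below, at a background of 11.4% and 10.6%. In DMSO this held for 0 above and 0 below, at a background of 6.91% and 9.01%. SCPL49, a close relative of scpl48, was at -0.05 ± 0.11 in DMSO and 0.01 ± 0.11 in hyperphyllin.

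scpl22 had lower and scpl46 higher means in amp1-13 in both media, without passing the test with all arrays at equal weight in the fit to all 4 groups. scpl22 was at 2.33, 4.25 and 3.97 (log2) in wild type and at 2.11, 2.83 and 2.01 in amp1-13 in DMSO, and at 3.54, 3.23 and 3.76 against 2.21, 1.99 and 1.85 in hyperphyllin. Its differences were -1.20 ± 0.40 (limma adjusted p = 0.18) and -1.49 ± 0.40 (adjusted p = 0.182). scpl22 was dim on all arrays of both genotypes except DMSO array 2 of wild type, below the array medians of 4.13 to 4.18. scpl46 was at 6.26, 5.25 and 4.96 in wild type and at 6.20, 6.08 and 5.93 in amp1-13 in DMSO, and at 5.44, 5.50 and 5.46 against 5.98, 5.99 and 6.0 in hyperphyllin. Its differences were 0.58 ± 0.24 (adjusted p = 0.268) and 0.53 ± 0.24 (adjusted p = 0.505).

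DMSO array 1 of wild type lay among the untreated amp1-13 arrays for scpl22 and above all of them for scpl46, away from arrays 2 and 3 for both. Without it the differences in DMSO were -1.79 for scpl22 (limma adjusted p = 4.25e-04, from 4.25e-04 to 0.479 over 17 alternatives) and 0.96 for scpl46 (limma adjusted p = 2.37e-04, from 2.37e-04 to 0.572 over 18). In that fit 8 of the 32 genes passed in DMSO, 4 higher and 4 lower, and 8 of the 48 subtilases, 6 higher and 2 lower, against 15.3% of all probe sets. In hyperphyllin, where that array entered only through the shared spread, both genes also passed without it (limma adjusted p = 0.00407 for scpl22 and 0.0192 for scpl46, against 3.30% of all probe sets) and with only the groups compared (0.00642 and 0.0217), and scpl22 with array weights (0.00773). Over all alternatives the adjusted p there ran from 0.00407 to 0.475 for scpl22 and from 0.0192 to 0.774 for scpl46.

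**Figure D4:**
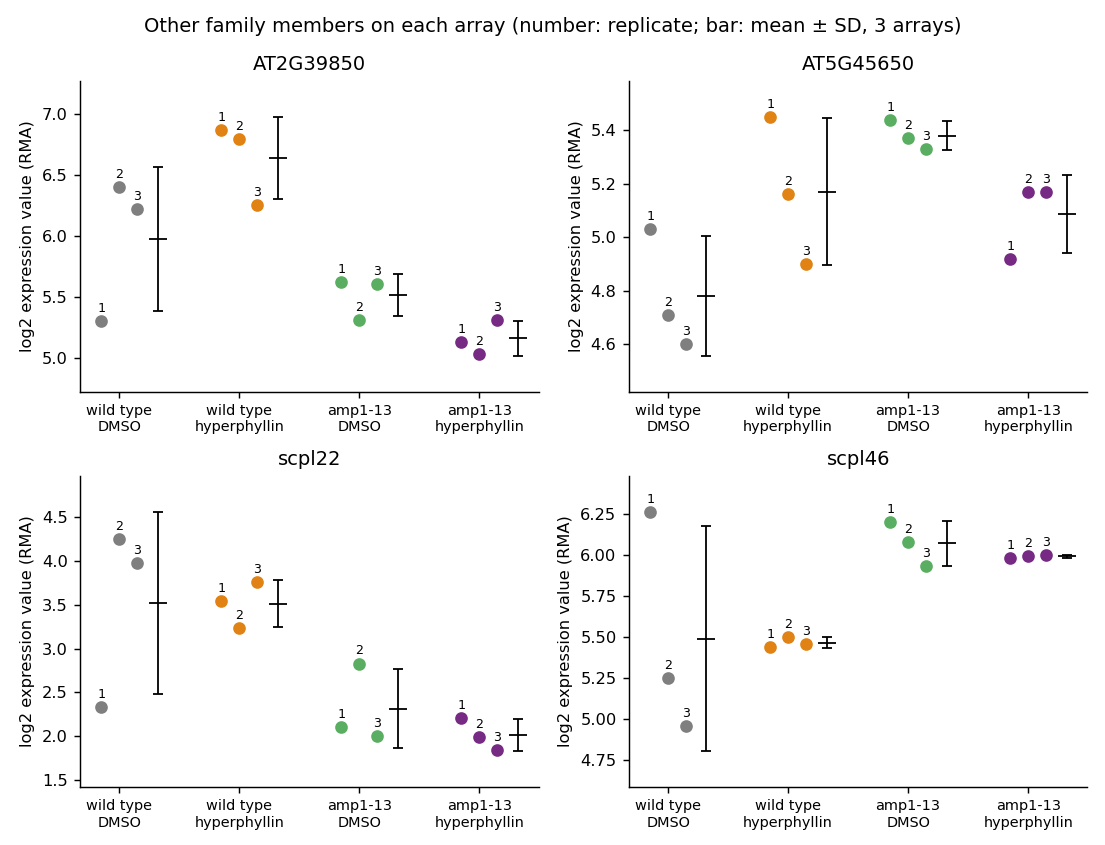
Log2 expression value (y axis, a separate scale per panel) of 2 other subtilases and 2 other serine carboxypeptidase-like genes on each array, by group (x axis). Points are arrays with their replicate number and the black mark is the mean ± SD of 3 arrays. AT2G39850 and scpl22 have all 3 treated wild-type arrays above all 3 treated amp1-13 arrays, scpl46 has them below, and the treated groups of AT5G45650 overlap.

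In treated against untreated wild type, limma called 0 of the 32 serine carboxypeptidase-like genes, and 2 had an unadjusted p under 0.05: scpl28 at -1.17 ± 0.45 (adjusted p = 0.201) and scpl44 at -0.44 ± 0.19 (adjusted p = 0.262). Next came scpl35 at 0.44 and scpl20 at -0.40. Counts by unadjusted p have no background here. scpl28 was at 5.22, 7.07 and 7.66 in untreated wild type, split between array 1 and the other arrays as scpl48 was, and at 5.64, 5.07 and 5.71 with the compound. In amp1-13 the compound gave 0 calls and 2 with an unadjusted p under 0.05, scpl23 at -0.71 ± 0.24 (adjusted p = 0.499) and scpl26 at 0.31 ± 0.11 (adjusted p = 0.548). With array 1 of untreated wild type left out 5 of 32 genes passed in wild type, against 14.0% of all probe sets, and with array weights 6, against 17.3%.

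Few of the listed genes around these peptidases were measured. Of 27 listed genes of known subtilase substrates, their receptors and inhibitors, 5 were measured. The test called 1 of the 5 for the compound in wild type, against 1.64% of all probe sets. It also called 1 of the 5 between the genotypes in hyperphyllin, against 0.229%. Both calls were of IDL4. The list was made with earlier results of these data known, so neither count is a result about the list. IDL4, a gene of IDA-like peptides, fell with hyperphyllin in wild type by 1.02 ± 0.12 (limma adjusted p = 0.0031) and, in hyperphyllin, lay 0.96 ± 0.12 above wild type in amp1-13 (adjusted p = 0.0123). In amp1-13 the compound's difference for IDL4 was 0.22 ± 0.12 (limma adjusted p = 0.785). Its interaction of 1.24 ± 0.16 did not pass (limma adjusted p = 0.128). IDL3, CLE40, AT5G01075 and AT1G71950 passed in no comparison; AT5G01075 was at 0.46 ± 0.13 in amp1-13 in DMSO (adjusted p = 0.124). Of 16 listed proteases of other classes 3 were measured, the vacuolar processing enzyme genes ALPHA-VPE, BETA-VPE and GAMMA-VPE, and none passed; GAMMA-VPE was at -0.56 ± 0.16 with hyperphyllin in amp1-13 (adjusted p = 0.35). AT5G19740, the measured gene of 2 listed as AMP1-type peptidases, passed in no comparison and its difference of treated from untreated wild type was -0.47 ± 0.14 (adjusted p = 0.112).

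Across the 12 arrays SBT4.12, ATSBT5.2 and SCPL34 varied together, as a description of arrays that share their groups. SBT4.12 was the most similar of 17503 other probe sets to SCPL34 (Pearson r = 0.965), and ATSBT5.2 ranked 2 (r = 0.959). All 3 were chosen by a genotype difference in the same direction on these arrays. That choice favours high ranks, so the ranks are no separate evidence that the genes vary together. scpl48 had r from -0.431 to -0.385 with the 3. Among other genes with a symbol, those most like SBT4.12 were APS4 (r = 0.925), TBL25 (0.923) and EXGT-A3 (0.908). Most like ATSBT5.2 were SFP2 (0.949), RCA (0.922) and LPA19 (0.916); RCA is also 1 of the 3 shoot markers, with group means from 10.67 to 10.82. Most like SCPL34 were SFP2 (0.934), GLR3.3 (0.930) and TSC10A (0.911). SFP2, a sugar transporter gene, thus headed 2 of these lists, with group means of 5.44 and 5.66 in untreated and treated wild type and 6.68 and 6.64 in untreated and treated amp1-13. Most like scpl48 were TBL33 (0.938), ATG8H (0.937) and STR18 (0.932); ATG8H, a gene of autophagy, had group means from 6.24 to 6.70, highest in untreated wild type.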

How the data were processed

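The deposited values are log2 expression after RMA by the authors, a method named in the submitters' processing notes; which software and probe definitions were used is not given in the sources used here. The table had 38408 probe sets on 12 arrays, 17504 of them (45.6%) with a gene in the platform annotation (16746 with 1 gene, 758 with several). Of those with 1 gene, 16741 matched a locus of RefSeq (TAIR10.1), 140 of them by symbol, which was used for names and neighbours only. No sequence was used here. Scanner intensities were not analysed here, so signal over background is unknown, and the number of arrays limits the precision. A mean per group was fitted with limma 3.58.1 in R 4.3.3 to all 12 arrays (8 residual and 3.9 prior degrees of freedom), with Benjamini-Hochberg adjustment over 17504 probe sets and a threshold of 0.05. A gene with several probe sets was represented by the brightest.

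The 4 genes and all gene lists were chosen with earlier results of these data known. Subtilases were listed by name in the annotation or by locus code from general knowledge, serine carboxypeptidase-like genes by name; HDS, matched through an old synonym, was removed. Other genes named were, per comparison, those of the 2 families that passed or else the 4 with the smallest p, up to 4 of the other lists, and the 3 genes with a symbol most correlated with each of the 4. Genes shown by array for contrast (scpl28, scpl46, SCPL49) or as neighbours were picked after their values were seen. Of 18 same-numbered pairs of arrays from different groups 4 had correlated deviations above 0.1 (range -0.28 to 0.29), so replicate numbers were not used as pairs. No pair of arrays was identical. The fit was tested on simulated data. Alternatives were all 38408 probe sets, a filter on dim probe sets, quantile normalization, array weights, only the groups compared, the replicate block and leaving out each array; the filter was applied to the 4 genes after seeing the data.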

Additional observations from a re-analysis of the deposited data

How the results depend on the processing

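Over 18 alternatives in each medium, the genotype differences of SBT4.12, ATSBT5.2 and SCPL34 ran from 1.00 to 1.38, 0.58 to 0.83 and 0.52 to 0.75 (log2) in DMSO. In hyperphyllin they ran from 0.87 to 1.17, 0.49 to 0.65 and 0.68 to 0.73. Their direction never changed, but the genotypes did not overlap, so leaving out or weighting arrays could not have changed it. SBT4.12 and ATSBT5.2 were called in hyperphyllin under 3 of the 18: array weights (1.06 and 0.58), only the groups compared (0.99 and 0.58), and array 1 of untreated wild type left out. The highest limma adjusted p was 0.324 for SBT4.12 and 0.367 for ATSBT5.2. These calls carry no test, since the treated arrays entered the choice of both genes. In DMSO the 2 subtilases and 1 carboxypeptidase-like gene called became 0 and 0 with all probe sets, quantile normalization, the replicate block and only the groups compared, 10 and 8 with array weights (15.2% of all probe sets), and 0 to 8 each with an array left out. In hyperphyllin 1 and 1 became 0 and 0 with all probe sets and the replicate block, 3 and 2 with array weights (3.25% of all probe sets), 3 and 3 with only the groups compared, and 0 to 3 each with an array left out. For the compound in wild type 0 and 0 became 1 subtilase with quantile normalization, 9 and 6 with array weights, and 0 to 7 and 0 to 5 with an array left out; in amp1-13 1 carboxypeptidase-like gene was called with only the groups compared. The interaction gave 0 to 1 carboxypeptidase-like gene with an array left out. The highest counts with an array left out came without array 1 of untreated wild type. The share of all probe sets called was then 15.3% for the genotype in DMSO and 3.30% in hyperphyllin. It was 14.0% for the compound in wild type and 2.75% for the interaction. Array weights gave 17.3% for the compound in wild type. Shares with quantile normalization and only the groups compared are not given here, so those counts have no background. The cause of these changes was not tested.

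scpl48 was at -1.0 (compound in wild type) and -0.70 (genotype in DMSO) with array weights, which gave array 1 of untreated wild type a weight of 0.2. It was then called in both comparisons, against 17.3% of all probe sets in the first and the share given above in the second. That low weight comes close to leaving array 1 out, so these values too may have led to its choice and the calls carry no test. With an array left out it ran from -1.16 to -0.18, from -0.89 to 0.08, from -0.0033 to 0.12 (genotype in hyperphyllin) and from -0.02 to 0.95 (interaction). Other values near 0 changed sign with an array left out: ATSBT5.2 from -0.0034 to 0.25 and SCPL34 from -0.05 to 0.18 for the compound in wild type, ATSBT5.2 from -0.09 to 0.07 in amp1-13 (0.02 with array weights), and the interactions of SBT4.12 (-0.38 to 0.04), ATSBT5.2 (-0.25 to 0.0020) and SCPL34 (-0.05 to 0.18). SBT4.12 with the compound in wild type ran from 0.15 to 0.57. The replicate numbers share only a number, and the replicate block gave no call to either family.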
